A study of Mus musculus with 46 samples.

Results

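A set of 30 genes of fatty acid oxidation and ketogenesis, chosen by name out of 53465 genes counted, was followed in mice that carry the Adar allele P195A together with an allele labelled p150neg or p150pos. Adar encodes the RNA-editing enzyme ADAR1, whose longer form p150 is inducible by interferon. In 18 of the 30 genes the product works in mitochondria, in 8 it works in peroxisomes, 1 is the ketone body enzyme Bdh1, and 3 are regulators or a binding protein (Ppara, Pdk4 and Fabp1). All 16 animals were C57BL/6 mice of postnatal day 23 that carried P195A, a change in the Z-nucleic acid binding domain found only in p150. In 8 animals the genotype was P195A with p150neg, and in the other 8 it was P195A with p150pos, so the p150-positive animals carry P195A as well and are not wild type. RNA from whole liver, kidney and cerebellum was sequenced, 1 library per animal and tissue, and the labels give neither sex nor litter.

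Mitochondria burn fatty acids by taking the acyl chain in through the carnitine shuttle and shortening it in a repeating cycle of dehydrogenation, hydration, oxidation and thiolysis, with the electrons passed on through electron transfer flavoprotein. Peroxisomes run a similar cycle, started by acyl-CoA oxidases, on very long and branched chains and on bile acid precursors. In the fasting or suckling liver the acetyl-CoA that results feeds ketone body synthesis, and the nuclear receptor PPAR alpha, encoded by Ppara, is known there as the activator of many of these genes.

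Of 46 libraries, 41 were used. The 5 others carried RNA of another organ: they were the libraries labelled liver and kidney of p150-negative animal 2, kidney of p150-negative animal 11, kidney of p150-positive animal 12 and cerebellum of p150-positive animal 7. Summed markers of the labelled organ reached at most 0.019% (liver), 0.0586% (kidney) and 0.825% (cerebellum) of the median for that label in these libraries, against at least 72.2%, 82.7% and 59.8% in the libraries used. The fits therefore held 7 livers of either genotype. There were 5 kidneys of p150-negative and 7 of p150-positive animals, and 8 cerebella of p150-negative and 7 of p150-positive animals. Totals ran from 0.27 to 6.24 M counts (M, 1000000), and the 3 libraries under 1 M were all p150-negative (kidney of animal 3 at 0.27 M, liver of animal 16 at 0.53 M and cerebellum of animal 11 at 0.94 M). Adar had 1.88 to 15.8 CPM (counts per 1000000 counts of the library) in p150-negative and 5.4 to 19.8 CPM in p150-positive livers (log2 fold change -0.59, adjusted p = 0.317). Gene-level counts pool p150 with the shorter p110 form, so Adar does not check the label.

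A direct repeat of the half-site bound by PPAR alpha with its partner RXR was searched for in the promoters of the 26 members that RefSeq's table covers (250 bases before to 50 bases after the start, GRCm38.p6). The motif searched was 2 copies of AGGNCA separated by 1 base, on both strands. It stood in the promoter of 1 of the 26 members (3.85%), Fabp1, against 0.451% of 27025 genes. The Fabp1 promoter (chr6:71199629-71199928, plus strand) is shown for this match, in capitals, which starts at position -67 from the start site. The promoter of Acox2 (chr14:8258970-8259269, minus strand, the first of its listed starts), the member with the smallest adjusted p in liver, is shown beside it and holds no such match. A match is a description of the letters, and no binding was measured.
Fabp1: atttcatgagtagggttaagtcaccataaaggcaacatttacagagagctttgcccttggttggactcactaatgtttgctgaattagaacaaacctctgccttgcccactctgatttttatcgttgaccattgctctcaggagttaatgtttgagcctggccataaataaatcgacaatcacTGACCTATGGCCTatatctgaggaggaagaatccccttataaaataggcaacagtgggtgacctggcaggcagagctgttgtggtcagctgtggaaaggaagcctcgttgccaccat
Acox2: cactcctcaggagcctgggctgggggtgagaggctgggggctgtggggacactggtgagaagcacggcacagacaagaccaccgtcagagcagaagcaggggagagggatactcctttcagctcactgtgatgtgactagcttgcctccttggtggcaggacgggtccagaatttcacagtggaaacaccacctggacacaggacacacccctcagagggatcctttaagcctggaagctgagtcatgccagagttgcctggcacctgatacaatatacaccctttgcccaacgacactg

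The liver was the tissue in which members passed the test. Acox2 and Crat rose in p150-negative livers, and none of the other 27 members tested passed in either direction. The set did not move one way: 14 of the 29 log2 fold changes (p150-negative over p150-positive) were positive and 15 negative, with a median of -0.04, beside a median of -0.04 over all 9843 genes tested. A gene was called at an adjusted p under 0.05, edgeR's quasi-likelihood test with Benjamini-Hochberg adjustment over all genes tested in that tissue. Of all genes 6.94% were called higher and 4.76% lower in p150-negative livers, so 2 of 29 members higher and 0 lower is not above the background. At an unadjusted p under 0.05, 9 of the 29 members passed, beside 23.3% of all genes. In CPM the groups did not overlap for 0 of the 29 members, beside 4.09% of all genes tested. For 21 of the 29 members the 95% interval of the fold change lay within 2-fold in either direction, and Pdk4 fell below the filter on low counts. In whole tissue, fewer cells of a type and less RNA per cell cannot be told apart.

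The peroxisomal gene Acox2 encodes the acyl-CoA oxidase that acts on branched chains and bile acid intermediates (chr14:8225511-8259353, minus strand, GRCm38). It had 293, 533 and 611 CPM (lowest, median, highest) in p150-negative livers, against 180.2, 311 and 388 CPM in p150-positive livers. 6 of the 7 p150-negative livers, all but that of animal 16, lay above every p150-positive liver. Its mean was 514 ± 104 CPM in p150-negative and 296 ± 87.2 CPM in p150-positive livers (SD, n = 7 each), a log2 fold change of 0.85 ± 0.21 (SE) with a 95% interval of 0.42 to 1.28 and an adjusted p of 0.00848. Each of the 14 fits that left out 1 liver kept the call (0.74 to 0.94). With the library labelled liver of animal 2 put back, which carries kidney RNA, the log2 fold change was 0.68 ± 0.35 and the adjusted p 0.29. The sets of animals sharing the same letters in their identifier, whose meaning the labels do not give, had log2 differences of 0.60, 0.69, 0.76 and 1.55, of which 2 sets hold 1 animal of each genotype.

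The other peroxisomal members did not pass the test. Ehhadh, the bifunctional enzyme that follows the oxidase and a well-known PPAR alpha target, had 235, 370.1 and 777 CPM in p150-negative and 253, 381 and 619 CPM in p150-positive livers (log2 fold change 0.29 ± 0.31, adjusted p = 0.653). The thiolase Acaa1a stood at 0.58 ± 0.27 and its near-identical partner Acaa1b at -0.44 ± 0.38. These values are uncertain, since 12.9% of the 50-base stretches of Acaa1a and 30.5% of those of Acaa1b occur in other genes. Log2 fold changes of the rest were 0.43 for Eci2, an enoyl-CoA isomerase, 0.42 for Crot, which makes octanoylcarnitine, 0.01 for Decr2, a dienoyl-CoA reductase, and -0.15 for Hsd17b4, the other bifunctional enzyme.

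**Figure D1:**
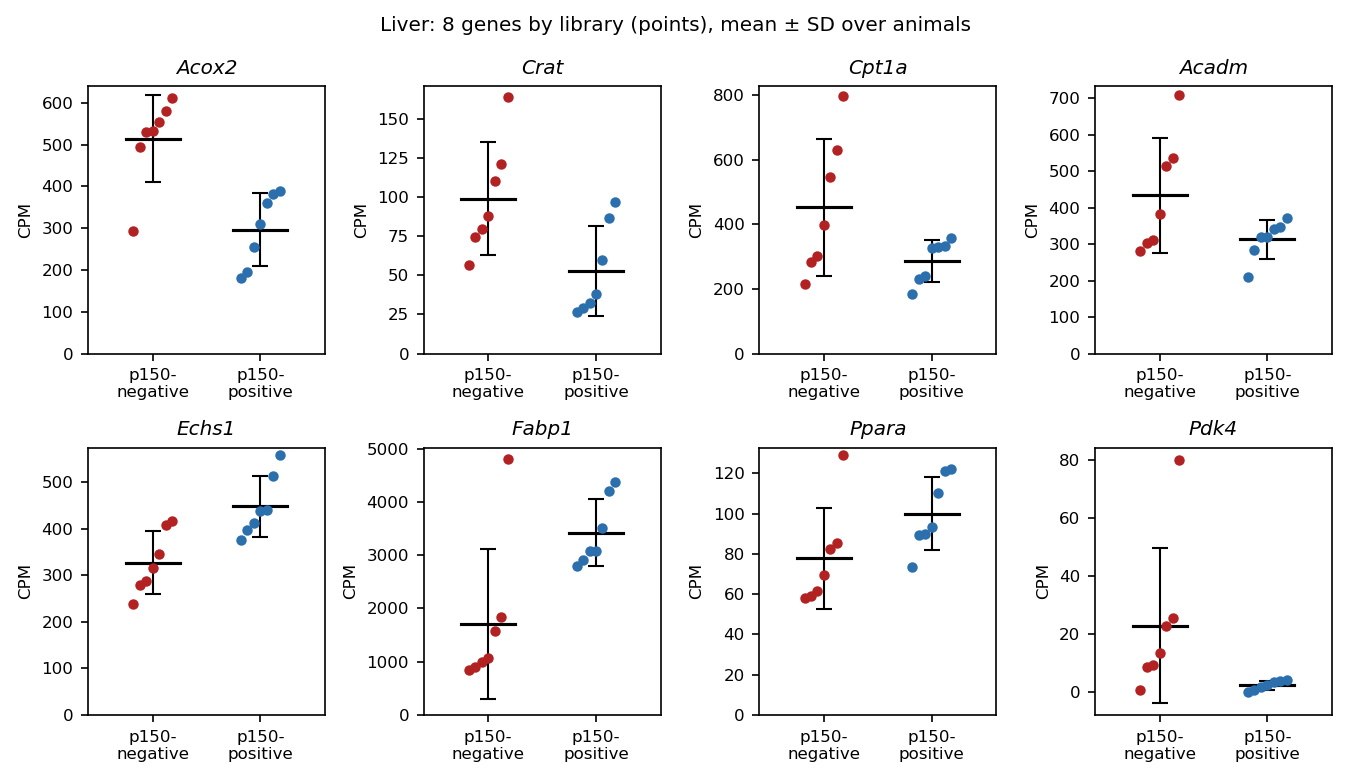
CPM on a linear axis in each liver library for 8 members, p150-negative left and p150-positive right, with points for libraries and bars for the mean and SD. Acox2 and Crat are shifted up in p150-negative livers, Fabp1 is low in 6 of the 7, and Pdk4 is high in 6 of the 7 but too sparse for the filter.

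Entry into mitochondria held the second call. Crat encodes carnitine acetyltransferase, which buffers acetyl-CoA as acetylcarnitine (chr2:30400471-30415813, minus strand). It had 56.4, 88.1 and 164 CPM in p150-negative livers, against 26.5, 38 and 97.1 CPM in p150-positive livers. The groups overlapped, with 3 of the 7 p150-negative livers above every p150-positive one. The log2 fold change was 0.97 ± 0.29, with a 95% interval of 0.35 to 1.58 and an adjusted p of 0.0358. This call was near the threshold: it was lost without p150-negative animal 1, 3 or 14 or p150-positive animal 4, 7, 10 or 15 (log2 fold changes 0.83 to 0.98, adjusted p up to 0.09), with all libraries as labelled (0.93, adjusted p = 0.0602) and when library totals replaced TMM (0.91, adjusted p = 0.0597). Crat shares 470 bases with overlapping genes, and whether strand was used in counting is not given in the sources used here.

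Cpt1a, the rate-limiting carnitine palmitoyltransferase of the outer mitochondrial membrane (chr19:3322334-3385733, plus strand), had 215, 399 and 797 CPM in p150-negative and 185, 326 and 357 CPM in p150-positive livers. 4 of the 7 p150-negative livers lay above every p150-positive one and the rest within their range. Its log2 fold change of 0.71 ± 0.26 missed the threshold (adjusted p = 0.086). Of the 14 fits that each left out 1 liver, it passed in that without p150-negative animal 11 alone (0.83, adjusted p = 0.035). Within the sets of identifier letters the Cpt1a difference ran from -0.01 to 1.44. The carrier Slc25a20 and the inner-membrane transferase Cpt2, the next steps of the shuttle, stood at 0.24 ± 0.20 and -0.22 ± 0.21.

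Each of the acyl-CoA dehydrogenases opens the cycle for another chain length. Among them Acadm (medium chains) had 280, 383 and 709 CPM in p150-negative and 209.5, 321 and 373 CPM in p150-positive livers. 4 of the 7 p150-negative livers lay above every p150-positive one, and the log2 fold change was 0.53 ± 0.22 (adjusted p = 0.139). Acadl (long chains), Acadvl (very long chains) and Acads (short chains) stood at 0.26, 0.03 and -0.09. In the later steps Echs1, the enoyl-CoA hydratase, had 238, 316 and 416 CPM in p150-negative and 374.9, 438 and 558 CPM in p150-positive livers. 5 of the 7 p150-negative livers lay below every p150-positive one, with a log2 fold change of -0.40 ± 0.17 (adjusted p = 0.16). The thiolase Acaa2 and the dehydrogenase Hadh stood near it at -0.43 ± 0.20 and -0.37 ± 0.20. The subunits of the trifunctional protein went apart, Hadha at -0.16 ± 0.20 and Hadhb at 0.47 ± 0.22 (adjusted p = 0.208), and 19.7% of the stretches of Hadhb also occur in another gene. The auxiliary enzymes for unsaturated chains, Eci1 and Decr1, stood at -0.27 and -0.12. Electron transfer flavoprotein Etfa and Etfb and their dehydrogenase Etfdh stood at -0.24, -0.37 and 0.21. The values of Etfb are uncertain in all 3 tissues, since it overlaps Gm45233 and 44.8% of its 50-base stretches also occur in other genes. Over all 18 mitochondrial members, 8 fold changes were positive and 10 negative, with 1 call.

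Bdh1 makes the ketone body 3-hydroxybutyrate from acetoacetate. It had 85.5, 168 and 452 CPM in p150-negative and 61, 226 and 321 CPM in p150-positive livers (log2 fold change -0.04 ± 0.33, adjusted p = 0.97). The groups overlapped, with the p150-negative livers of animals 3 and 14 above every p150-positive one. Its 95% interval was -0.72 to 0.65. Bdh1 overlaps Gm15743, on the other strand, over 533 bases, so its values are uncertain in all 3 tissues.

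Ppara had 58.3, 69.5 and 129 CPM in p150-negative and 73.7, 93.5 and 122 CPM in p150-positive livers. 4 of the 7 p150-negative livers lay below every p150-positive one and 1, that of animal 3, above them all (log2 fold change -0.33 ± 0.18, adjusted p = 0.306). Fabp1, the abundant fatty acid binding protein of liver whose promoter is printed above, had 837, 1064 and 4798 CPM in p150-negative and 2789.9, 3087 and 4371 CPM in p150-positive livers. 6 of the 7 p150-negative livers lay below every p150-positive liver, and that of animal 16, the shallowest at 0.53 M counts, lay above them all. With it the log2 fold change was -0.91 ± 0.36 (adjusted p = 0.123), and without it -1.55 ± 0.22 (adjusted p = 9.2e-05). With all livers kept, Fabp1 passed with limma voom (-1.20, adjusted p = 0.0177) and with the identifier letters as a block (-1.23, adjusted p = 0.00128). It also passed with Xist as a covariate (-1.20, adjusted p = 0.0468) and with no filter (-0.98, adjusted p = 0.0384). It was not called with RLE size factors, DESeq2, a minimum count of 30, library totals or all libraries as labelled. Of the 14 fits that left out 1 liver, only that without animal 16 called it. Pdk4, the pyruvate dehydrogenase kinase that spares glucose when fat is burned (chr6:5483351-5496309, minus strand), had 0.411, 13.4 and 80 CPM in p150-negative and 0, 2.09 and 3.86 CPM in p150-positive livers. 6 of the 7 p150-negative livers lay above every p150-positive one. It was not tested in the comparison as set, because too few libraries held enough counts. With no filter its log2 fold change was 3.32 ± 0.55 (adjusted p = 2.77e-05). With all libraries as labelled it was 4.12 ± 0.87 (adjusted p = 0.00637), where the library of kidney RNA labelled liver had 246 CPM. Pdk4 came through the filter there with that library added to the p150-negative group, so this p-value is no support.

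**Figure D2:**
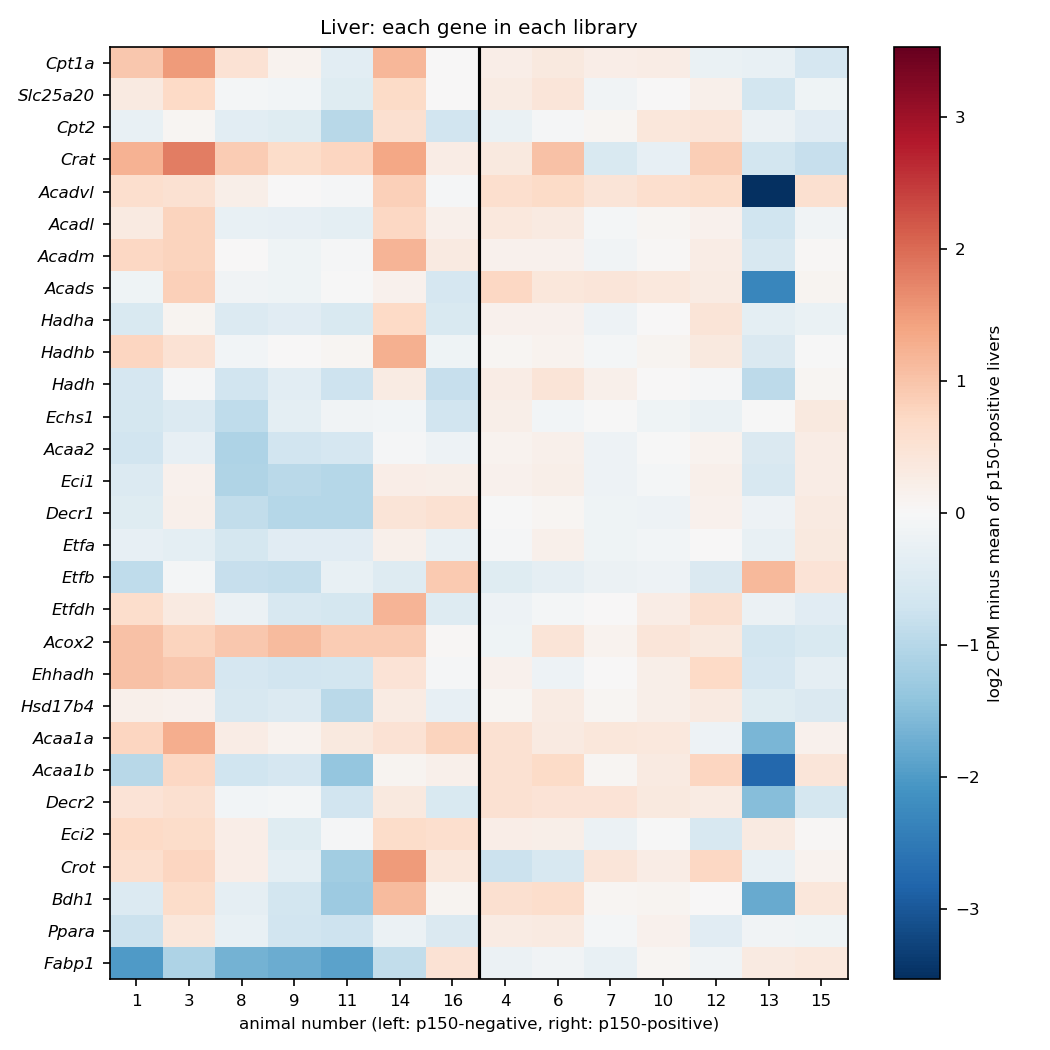
Each column is a liver library, p150-negative left and p150-positive right, and each row 1 of the 29 members tested. Colour is the log2 CPM minus the mean of the p150-positive livers. Whole columns stand apart within a genotype. Animals 3 and 14 (p150-negative) are mostly above 0. Animals 8, 9 and 11 (p150-negative) and animal 13 (p150-positive) are mostly below.

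Livers of 1 genotype differed from each other over much of the set. The mean deviation over the 29 members from the p150-positive mean was 0.04, 0.44, -0.29, -0.36, -0.49, 0.53 and -0.02 (log2) in p150-negative animals 1, 3, 8, 9, 11, 14 and 16. In p150-positive livers it was between -0.02 and 0.23 except in animal 13, at -0.70. The lowest p150-negative livers, of animals 8, 9 and 11, share the identifier letters AC. The p150-positive livers with these letters, of animals 7, 10 and 12, stood at 0.02, 0.12 and 0.19. These deviations rest on library totals without TMM, and the same value over all genes is not given here. In animal 14 there were 24 of 29 members above the p150-positive mean and in animal 11 there were 4, so p150-negative livers stood on both sides of the p150-positive mean. The SD of log2 CPM was larger among p150-negative than among p150-positive livers for 20 of the 29 members, with medians of 0.48 and 0.35. The same held for 22 of 30 members in kidney and 22 of 27 in cerebellum. The shallowest library of each tissue is p150-negative, and the part of depth was not tested. The share over all genes is not given here.

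Other cell types moved in the same livers. The summed level of 6 neutrophil markers was 398 to 1538 CPM in p150-negative and 22.6 to 169 CPM in p150-positive livers, and that of 7 macrophage and monocyte markers 673 to 1706 CPM in p150-negative and 213 to 451 CPM in p150-positive livers, with none at 0 in either group. Liver identity genes, 4 of 4 detected, summed to 34639 to 66112 CPM in p150-negative and 45866 to 66690.4 CPM in p150-positive livers. The part of these cells in the values of Acox2, Crat and Fabp1 was not tested.

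In kidney no member passed the test in either direction, where 0.385% of 11957 genes were called higher and 0.309% lower. At an unadjusted p under 0.05, 5 of 30 members passed, beside 8.19% of all genes, and limma voom and DESeq2 called 0 as well. Over all genes limma voom called 53 higher and 40 lower of 11957, and DESeq2 147 and 160. Of 30 members, 22 had a negative and 8 a positive log2 fold change, with a median of -0.23 beside -0.07 over all genes. The median of the members was -0.13 without the kidney of p150-negative animal 3, the shallowest library at 0.27 M counts, and -0.36, with 4 of 30 positive, without that of p150-negative animal 1. For 18 of 30 the 95% interval lay within 2-fold.

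Values of the 5 p150-negative kidneys are given in the order of animals 1, 3, 8, 9 and 16. Bdh1, which in kidney serves the use of ketone bodies, had 33.2, 44.6, 52.9, 89.1 and 29.1 CPM in p150-negative kidneys, against 56.6, 89.8 and 108 CPM (lowest, median, highest) in p150-positive kidneys. All but animal 9 lay below every p150-positive kidney, and the log2 fold change was -0.88 ± 0.30 (adjusted p = 0.299). Acadm had 826, 617, 579.8, 671 and 614 CPM in p150-negative kidneys, against 602, 863 and 1041 CPM in p150-positive kidneys (-0.49 ± 0.18, adjusted p = 0.354). The groups overlapped, with animal 8 alone below every p150-positive kidney. Etfa had 529.6, 553, 463, 499 and 546 CPM in p150-negative kidneys, against 557, 596 and 843 CPM in p150-positive kidneys. Its groups did not overlap, as for 1 of the 30 members in kidney, beside 1.85% of all genes tested there, and its log2 fold change of -0.41 ± 0.16 had an adjusted p of 0.388.

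The next members by adjusted p, the dehydrogenase Hadh, the thiolase Acaa1b and Acadvl, did not pass either. Hadh had 468, 279, 412, 431 and 426 CPM in p150-negative and 359.6, 570 and 652 CPM in p150-positive kidneys (log2 fold change -0.51 ± 0.20, adjusted p = 0.443). Acaa1b had 328, 253, 289.9, 248 and 446 CPM in p150-negative and 332, 386 and 488 CPM in p150-positive kidneys (-0.41 ± 0.19, adjusted p = 0.596). Both overlapped, although 4 of the 5 p150-negative kidneys lay below every p150-positive one for Acaa1b. Acadvl had 300.1, 204, 204, 231 and 226 CPM in p150-negative and 219, 267 and 333 CPM in p150-positive kidneys (-0.35 ± 0.18, adjusted p = 0.664), and 1151 of its bases overlap Dvl2.

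The rate-limiting and regulatory members spread widely within a genotype in kidney. Cpt1a had 392, 301, 363, 297 and 298 CPM in p150-negative and 22.3, 290 and 326 CPM in p150-positive kidneys, the lowest being that of animal 5 (log2 fold change 0.30 ± 0.39, adjusted p = 0.956). Ehhadh had 1468, 189, 548, 412 and 637 CPM in p150-negative and 185, 482 and 724 CPM in p150-positive kidneys (0.49 ± 0.41, adjusted p = 0.884). The p150-negative kidney of animal 1 was above all others for Ehhadh. Ppara had 53.4, 14.9, 16.8, 15.1 and 31.1 CPM in p150-negative and 20.1, 27.2 and 42.6 CPM in p150-positive kidneys (-0.23 ± 0.39, adjusted p = 0.975). Pdk4 had 103, 0, 41.3, 25.8 and 118 CPM in p150-negative and 3.08, 35.3 and 53.7 CPM in p150-positive kidneys (1.07 ± 0.65, adjusted p = 0.756). Animals 1 and 16 stood above every p150-positive kidney for Pdk4, and animal 3 was at 0 in the shallowest library.

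Of the other members in kidney, Acox2 stood at -0.52 ± 0.31 and Crat at -0.15 ± 0.25. The shuttle genes Slc25a20 and Cpt2 stood at 0.27 and -0.62, with Cpt2 at 0 CPM in the kidney of animal 3. Acads was lowest of the dehydrogenases at -0.77 ± 0.42, also at 0 CPM in that library, and Acadl stood at -0.07. Hadha, Hadhb, Echs1 and Acaa2 lay between -0.23 and 0.00, and Eci1 and Decr1 at -0.15 and -0.25. Etfb and Etfdh stood at -0.52 and 0.09. In peroxisomes Hsd17b4 and Eci2 stood at 0.14 and 0.13, Acaa1a, Crot and Decr2 at -0.05, -0.24 and -0.35, and Fabp1, barely present in kidney, at -0.58 ± 0.83. Summed proximal tubule markers, those of the kidney cell that depends most on fatty acids, were 7995 to 19052 CPM in p150-negative and 11253 to 15451 CPM in p150-positive kidneys. Their part in these values was not tested.

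**Figure D3:**
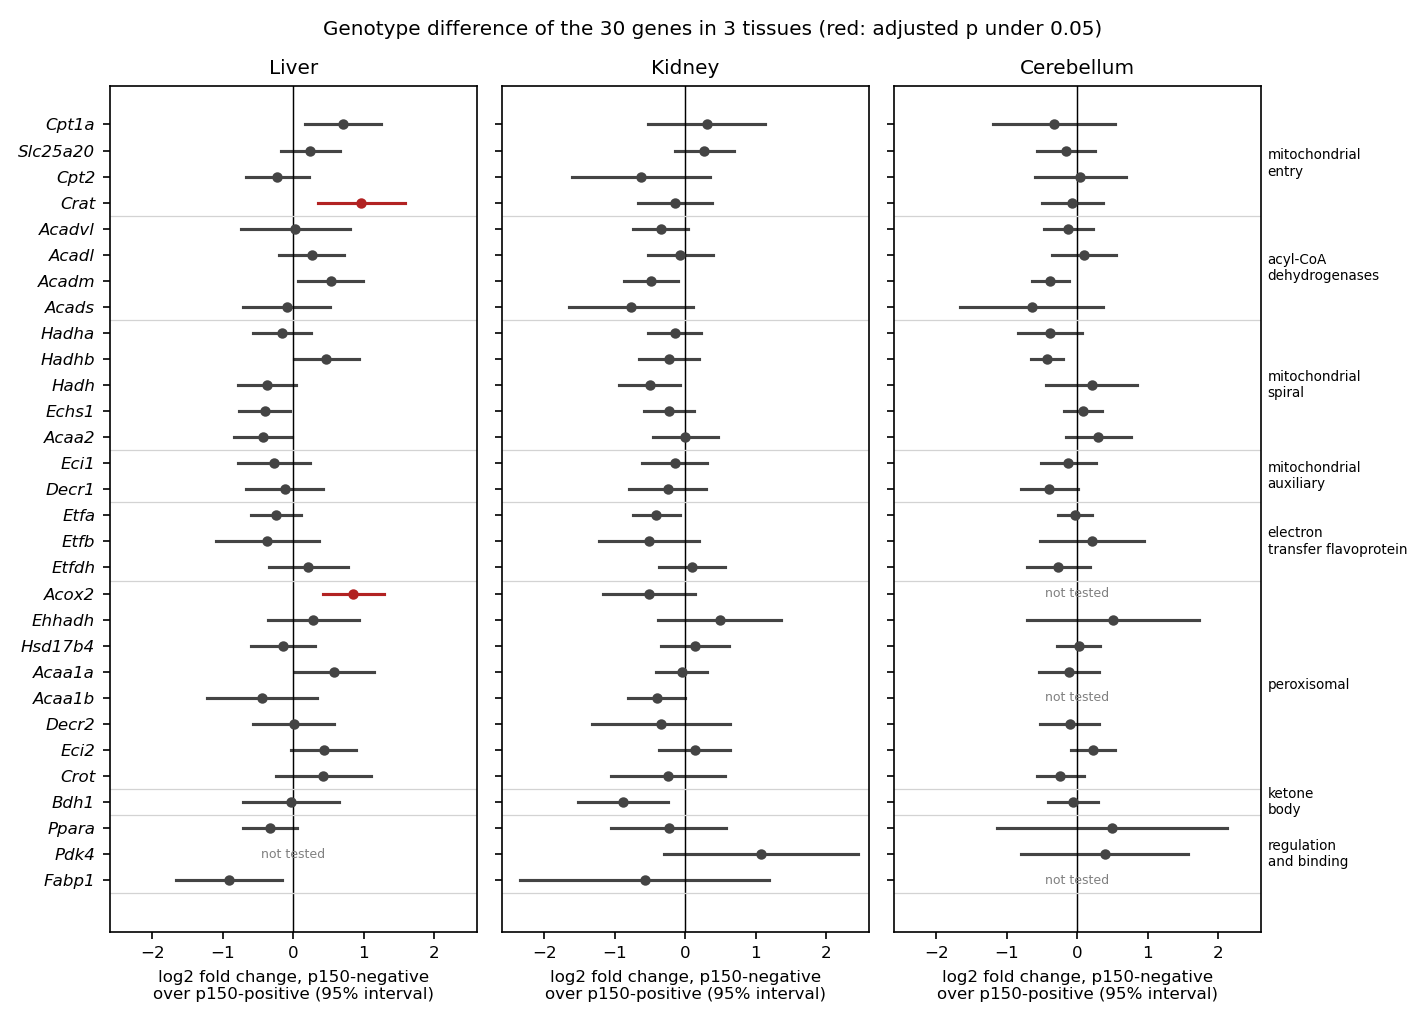
Log2 fold changes of the 30 members, p150-negative over p150-positive, with 95% intervals, in liver, kidney and cerebellum, and red for an adjusted p under 0.05. Acox2 and Crat in liver are the only red points.

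In cerebellum again no member passed, where 0.723% of 13146 genes were called higher and 0.274% lower. At an unadjusted p under 0.05, 2 of the 27 members tested passed, Hadhb and Acadm, beside 9.57% of all genes. DESeq2 called 1 of them lower, Hadhb, beside 115 lower among all 13146 genes. Acox2, Acaa1b and Fabp1 fell below the filter, and of the 27 members tested 16 had a negative and 11 a positive log2 fold change, with a median of -0.07 beside 0.00 over all genes. The groups did not overlap for 0 of the 27, beside 0.464% of all genes tested. For 22 of the 27 the 95% interval lay within 2-fold.

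Hadhb, the thiolase subunit of the trifunctional protein (chr5:30155248-30184593, plus strand), had 82.4, 89.8 and 106 CPM in p150-negative cerebella, against 102, 117 and 139 CPM in p150-positive cerebella. 7 of the 8 p150-negative cerebella lay below every p150-positive one, and the log2 fold change was -0.42 ± 0.11 (adjusted p = 0.0792). Without p150-negative animal 16 it was -0.46 (adjusted p = 0.0426). Acadm (chr3:153922357-153944632, minus strand) had 59.8, 69.4 and 80.3 CPM in p150-negative and 71.9, 86.7 and 118 CPM in p150-positive cerebella. Here too 7 of the 8 lay below, with a log2 fold change of -0.38 ± 0.13 (adjusted p = 0.239). In each of the 4 sets of identifier letters the difference was negative, -0.29 to -0.50 for Hadhb and -0.27 to -0.55 for Acadm.

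The other subunit, Hadha, had 18, 60.6 and 74.5 CPM in p150-negative and 57.4, 64.9 and 104 CPM in p150-positive cerebella (log2 fold change -0.39 ± 0.22, adjusted p = 0.608). The 18 CPM were those of animal 11, the shallowest cerebellum at 0.94 M counts. Decr1 had 36, 43.2 and 51 CPM in p150-negative and 39.4, 52.1 and 98.3 CPM in p150-positive cerebella (-0.40 ± 0.19, adjusted p = 0.532). Crot had 60.3, 98.4 and 126 CPM in p150-negative and 83.5, 108 and 132 CPM in p150-positive cerebella (-0.24 ± 0.16, adjusted p = 0.699). Both overlapped widely. Eci2 lay on the other side, with 48.3, 73.2 and 94.4 CPM in p150-negative and 56, 61.8 and 70.9 CPM in p150-positive cerebella (0.22 ± 0.15, adjusted p = 0.708), and 4 of the 8 p150-negative cerebella lay above every p150-positive one.

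Cpt1a, Bdh1, Ehhadh, Pdk4 and Ppara each overlapped between the genotypes in cerebellum. Cpt1a had 0, 33.7 and 63.6 CPM in p150-negative and 27.6, 36.7 and 47.3 CPM in p150-positive cerebella (log2 fold change -0.33 ± 0.41, adjusted p = 0.863). Bdh1 had 46.3, 53.5 and 86.8 CPM in p150-negative and 46.3, 61.1 and 75.8 CPM in p150-positive cerebella (-0.06 ± 0.17, adjusted p = 0.951). For Ehhadh, Pdk4 and Ppara, at medians of 10.4, 10.8 and 1.98 CPM in p150-negative and 6.56, 8.82 and 1.6 CPM in p150-positive cerebella, the intervals were too wide to place a difference (adjusted p = 0.849, 0.889 and 0.899). The remaining 16 tested members lay between -0.65 (Acads) and 0.30 (Acaa2).

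Whether the genotype difference itself differed between tissues was asked with an interaction term, fitted for each pair of tissues. Between liver and cerebellum 2 of 30 members passed, Acadm at 0.90 ± 0.25 (adjusted p = 0.0407) and Hadhb at 0.89 ± 0.24 (adjusted p = 0.0411), beside 2.67% of all 14063 genes. At an unadjusted p under 0.05, 7 passed, beside 14.5% of all genes. Both values join a positive difference in liver to a negative one in cerebellum, neither of which passed alone. These calls were fragile. An alternative took the animal as a replicate block, in the animals with both tissues. Its values were 0.83 (adjusted p = 0.21) and 0.78 (adjusted p = 0.23). It called 0 of 30 members, beside 86 genes higher and 111 lower of 14115. The same animals with no block also gave 0 members, beside 139 genes higher and 165 lower. RLE size factors, DESeq2 and a minimum count of 30 kept both calls. With limma voom, library totals and no filter both were lost. With all libraries as labelled Acadm was at 0.86 (adjusted p = 0.0577) and Hadhb at 0.87 (adjusted p = 0.0457). Leaving out 1 animal kept each of them past the threshold in 4 of 16 cases, without animals 5, 8, 9 and 11 for Acadm and 8, 9, 11 and 16 for Hadhb, and adjusted p reached 0.099 and 0.112.

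**Figure D4:**
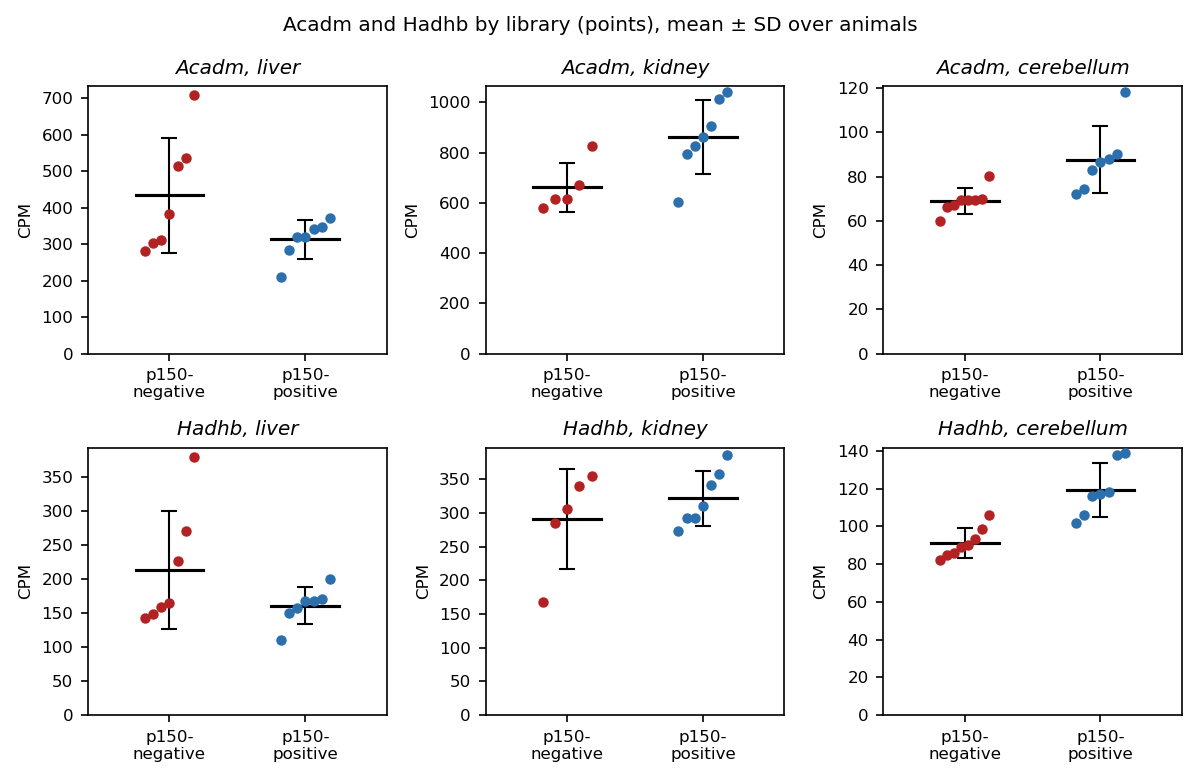
CPM of Acadm and Hadhb in each library of liver, kidney and cerebellum, p150-negative left of p150-positive, with the mean and SD. In cerebellum 7 of the 8 p150-negative libraries lie below every p150-positive one for either gene, whereas the p150-negative livers spread upward.

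Between liver and kidney 0 of 30 members passed, beside 1.5% of 12970 genes, with 5 at an unadjusted p under 0.05, beside 9.41% of all genes. Acox2 came closest, at 1.38 ± 0.39 (adjusted p = 0.0689). With the animal as a replicate block, in the animals with both tissues, 2 members passed, beside 74 genes higher and 43 lower of 12805. These were Acox2 at 1.61 (adjusted p = 0.0223) and Crat at 1.48 (adjusted p = 0.0432). In the same animals with no block Acox2 passed as well, at 1.59 (adjusted p = 0.0167), and Crat did not, at 1.44 (adjusted p = 0.105). That fit called 104 of all genes higher and 64 lower. DESeq2 called 2 as well, Acadm and Acox2, beside 230 genes higher and 165 lower of 12970. Between kidney and cerebellum 0 members passed, beside 0.114% of 14940 genes, with 1 at an unadjusted p under 0.05 (7.56% of all genes) and 0 by limma voom and DESeq2.

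With the 5 libraries of other-organ RNA put back under their labels, members called were 1 of 30 in liver, 0 of 30 in kidney and 1 of 26 in cerebellum, beside 7.37%, 0.00857% and 0.933% of all genes in either direction. The 1 in liver was Pdk4, which came through the filter there with the kidney RNA added to the p150-negative group, so it is no support. The 1 in cerebellum was Hadhb, lower.

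Levels also differed between tissues. In p150-positive animals the median CPM ran in the order liver, kidney, cerebellum for 18 members, kidney, liver, cerebellum for 10, and kidney, cerebellum, liver for 2, Crat and Pdk4. The first tissue lay above the second without overlap for 6 members, Crat, Acadm, Hadhb, Crot, Ppara and Fabp1, and the second above the third for 22. Some neighbours were near equal, such as Slc25a20 at 176 CPM in liver and 174 CPM in kidney and Etfb at 37.2 CPM in kidney and 37.1 CPM in liver. Fabp1 had a median of 3087 CPM in liver, 8.91 CPM in kidney and 0 CPM in cerebellum, and Ppara 93.5, 27.2 and 1.6 CPM. Acadm was highest in kidney, at 863 CPM, against 321 CPM in liver and 86.7 CPM in cerebellum. CPM is not corrected for length, so these orders hold within a gene.

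Around the 30 members, 105 other genes of the pathway were followed in 6 lists. In liver 95 of them passed the filter, of which 7 (7.37%) were called higher and 14 (14.7%) lower, with a median log2 fold change of -0.14. This is set beside 6.94% and 4.76% of all genes and was not tested as a set. The lists were chosen with earlier results of these data known, so an excess over these shares may come from that choice.

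Of 8 other ketone body genes in liver, 0 were higher and 2 lower. Aacs, which returns acetoacetate to lipid synthesis, had 2.06, 9.5 and 25 CPM in p150-negative and 13.9, 104 and 209 CPM in p150-positive livers (log2 fold change -3.27 ± 0.47, adjusted p = 6.46e-05). Bdh2, a cytosolic 3-hydroxybutyrate dehydrogenase, had 1.06, 2.53 and 5.64 CPM in p150-negative and 9.57, 13.1 and 37 CPM in p150-positive livers, with no overlap (-2.38 ± 0.40, adjusted p = 0.000321). With the kidney RNA labelled liver put back its sign turned (1.35 ± 1.02, adjusted p = 0.502).

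Of 23 other mitochondrial genes tested in liver, 2 were higher and 5 lower. Acot2, a mitochondrial acyl-CoA thioesterase, had 5.21, 19.3 and 40.8 CPM in p150-negative and 0.386, 4.17 and 5.76 CPM in p150-positive livers (log2 fold change 2.36 ± 0.47, adjusted p = 0.00154). The carnitine importer Slc22a5 rose by 1.30 ± 0.36 (adjusted p = 0.0199), a call lost without p150-negative animal 1 or 3 (adjusted p = 0.0636 and 0.0545). Acacb, whose product malonyl-CoA inhibits Cpt1a, had 1.23, 6.08 and 7.2 CPM in p150-negative and 5.4, 19.1 and 34.4 CPM in p150-positive livers (-1.90 ± 0.38, adjusted p = 0.00175). The acyl-CoA synthetases Acsl1 and Acsl5, which activate fatty acids, had log2 fold changes of -1.20 ± 0.29 and -0.94 ± 0.23 (adjusted p = 0.00774 and 0.00793), and Acsl1 was not called with all libraries as labelled (adjusted p = 0.0789).

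Of 21 other peroxisomal genes tested in liver, 0 were higher and 4 lower. Nudt7, a peroxisomal hydrolase of coenzyme A, had 41.1, 65.4 and 118 CPM in p150-negative and 293, 567 and 928 CPM in p150-positive livers, with no overlap (log2 fold change -3.05 ± 0.30, adjusted p = 1.45e-06). The fatty acyl importer Abcd3 and catalase, Cat, fell by 0.93 ± 0.20 and 0.82 ± 0.20 on the log2 scale (adjusted p = 0.00299 and 0.00816). With all libraries as labelled the adjusted p of Cat was 0.0666. These stood in the same livers in which the peroxisomal Acox2 rose.

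Of 20 other PPAR alpha targets tested in liver, 2 were higher and 1 lower. Cd36, a fatty acid transporter of the cell surface, had 218, 325 and 510.4 CPM in p150-negative and 43.5, 64.6 and 87.5 CPM in p150-positive livers, with no overlap (log2 fold change 2.54 ± 0.24, adjusted p = 9.37e-07). Vnn1, a pantetheinase, rose by 1.51 ± 0.35 (adjusted p = 0.00611). Mgll, monoacylglycerol lipase, fell by 1.03 ± 0.29 on the log2 scale (adjusted p = 0.0207).

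Of 19 other regulators tested in liver, 2 were higher and 1 lower. Pparg, the nuclear receptor of fat storage, had 15, 31.3 and 34.1 CPM in p150-negative and 2.79, 10 and 15.4 CPM in p150-positive livers (log2 fold change 1.55 ± 0.29, adjusted p = 0.000806). Ppargc1a, the coactivator PGC-1 alpha, rose by 0.92 ± 0.27 (adjusted p = 0.0273). That call was lost without p150-negative animal 1, 8, 14 or 16 or p150-positive animal 4 or 6 (adjusted p up to 0.0846). Lpin1, lipin 1, a phosphatidate phosphatase that also acts with PGC-1 alpha, had 22.2, 50.4 and 98.3 CPM in p150-negative and 131, 230.4 and 471 CPM in p150-positive livers, with no overlap (-2.24 ± 0.34, adjusted p = 0.000122).

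Of 4 other binding proteins tested in liver, 1 was higher and 1 lower. Fabp4, the adipocyte and macrophage form, rose by 1.00 ± 0.31 (adjusted p = 0.0427), lost without p150-negative animal 1, 3, 8, 14 or 16 or p150-positive animal 4, 6, 7, 10 or 12 (adjusted p up to 0.118). Dbi, the acyl-CoA binding protein, had 334, 623 and 1037 CPM in p150-negative and 1059, 1202 and 2434 CPM in p150-positive livers, with no overlap (log2 fold change -1.10 ± 0.28, adjusted p = 0.0119). Summed adipocyte and brown fat markers were 10.4 to 197 CPM in p150-negative and 2.32 to 6.04 CPM in p150-positive livers. In the first group Adipoq, Plin1 and Cox8b were at 0, so its sum came from Ucp1, Cidea and Cidec alone. In the second Ucp1, Plin1 and Cox8b were at 0. The part of adipocytes and macrophages in Cd36, Pparg and Fabp4 was not tested.

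**Figure D5:**
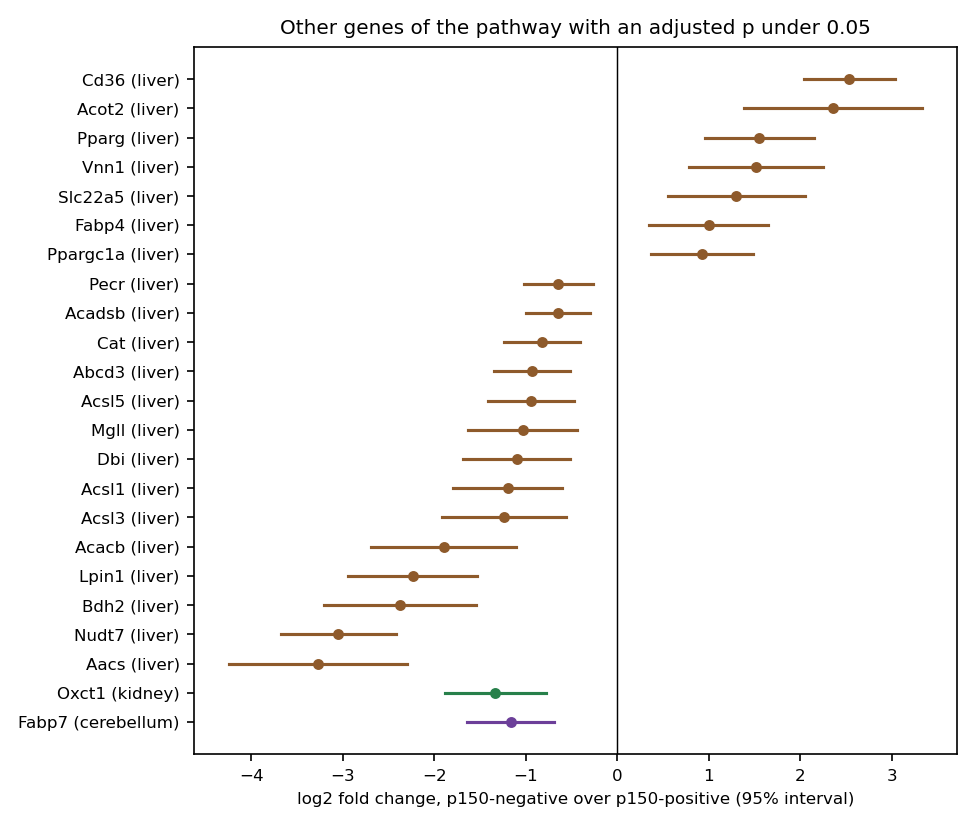
Log2 fold changes with 95% intervals, p150-negative over p150-positive, of the 105 other pathway genes that were called: 21 in liver, Oxct1 in kidney and Fabp7 in cerebellum. The liver calls run from -3.27 (Aacs) to 2.54 (Cd36).

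In kidney 1 of 93 other pathway genes tested (1.08%) was called lower and 0 higher, beside 0.309% and 0.385% of all genes. This was the ketone body gene Oxct1, which starts the use of ketone bodies outside the liver. It had 256, 454 and 885 CPM in p150-negative and 1054, 1294 and 1397 CPM in p150-positive kidneys, with no overlap (log2 fold change -1.34 ± 0.26, adjusted p = 0.0237). The call was lost without p150-negative animal 1, 8 or 16 or p150-positive animal 4, 7, 10 or 13 (log2 fold changes -1.23 to -1.42, adjusted p up to 0.0932) and with all libraries as labelled (-1.48, adjusted p = 0.607). In cerebellum 1 of 85 (1.18%) was called lower and 0 higher, beside 0.274% and 0.723% of all genes. This was Fabp7, the binding protein of radial glia and astrocytes. It had 69.7, 137 and 217 CPM in p150-negative and 221, 291 and 392 CPM in p150-positive cerebella, with no overlap (-1.17 ± 0.23, adjusted p = 0.0103). With all libraries as labelled its adjusted p was 0.0773. Summed astrocyte markers, 4 of 4 detected, were 2591 to 4444 CPM in p150-negative and 3767 to 5235 CPM in p150-positive cerebella, and their part in Fabp7 was not tested.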

How the data were processed

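Per the labels' protocols, tissues were frozen in TRIzol, RNA was cleaned with a DNase step, and libraries were built with the Nextera XT kit. The submitters' processing notes name FastQC 0.11.3, STAR 2.4.2a, SAMtools 1.2, Picard 1.134 and HTSeq 0.4.1, with the build GRCm38; strand setting and annotation are not given in the sources used here. The authors deposited raw read counts, whole numbers per gene, in 1 column for each library. Of 53471 gene entries, 6 were exact repeats and were dropped. Another 3433 entries have no gene symbol and take up 0.267% of all counts.

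The 30 members, the other lists and the libraries left out were chosen with earlier results of these data known. Each tissue was tested with edgeR 4.0.16 (R 4.3.3; quasi-likelihood test, TMM, filterByExpr with minimum count 10 and total 15), and p-values were adjusted by Benjamini-Hochberg over all genes tested. Each fold change is given with its SE, and intervals are at 95%. CPM was computed here from the deposited counts and the library totals. Within a tissue the p-values measure the spread between single libraries of separate animals. In a library of 1 M counts a gene at 10 CPM rests on about 10 counts, so low genes in shallow libraries are imprecise. The interaction fits took 2 tissues at a time with no animal block, so 2 libraries of 1 animal were treated as independent there. Libraries of different tissues pair by animal, per the labels, and the animal was the block in an alternative fit. As a check, deviations from the group means were correlated over genes for each animal, with coefficients of -0.017 to 0.247 (liver with kidney), -0.005 to 0.258 (liver with cerebellum) and -0.188 to 0.215 (kidney with cerebellum).

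The value in each library of a group of 5, or the lowest, median and highest of a larger group, is given for the 6 members with the smallest adjusted p in each tissue and for Cpt1a, Ppara, Pdk4, Bdh1 and Ehhadh, and from each other pathway list at most 3 called genes per direction are named. Alternatives were RLE size factors, library totals, DESeq2 1.42.0, limma 3.58.1 (voom), no filter, a minimum count of 30, all libraries as labelled, no libraries under 1 M counts, identifier letters as a block, Xist as a covariate and each library left out. The edgeR steps were tested on simulated data, and the limma voom and DESeq2 steps were not. Member coordinates, overlaps and shared 50-base stretches came from GENCODE M21, and promoters from RefSeq. 1 gene of the other pathway lists is not reported here.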

Additional observations from a re-analysis of the deposited data

Results flagged for a closer look

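Single libraries stood far from the rest of their group for a number of members, by Dixon's test at its 95% critical value, which chance passes in about 1 in 20 groups. All values are CPM. In liver the p150-negative library of animal 16, at 0.53 M counts, was highest for Fabp1 (4798) and Etfb (82.7) and lowest for Acox2 (293). The p150-negative liver of animal 14 was highest for Hadha (306), Etfa (615) and Pdk4 (80), and that of animal 3 for Acads (133) and Ppara (129). The p150-positive liver of animal 13 was lowest for Acadvl (18.9), Acads (14.3), Acaa1b (71.8) and Bdh1 (61).

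In kidney the p150-negative library of animal 3, at 0.27 M counts, was lowest for Cpt2 (0) and Crot (63.1), and that of animal 1 was highest for Acadvl (300.1). The p150-positive kidney of animal 5 was lowest for Cpt1a (22.3) and Crot (62.4), that of animal 15 lowest for Decr2 (57.5), that of animal 13 highest for Acaa2 (1757) and that of animal 10 highest for Fabp1 (45.7). In cerebellum the p150-negative library of animal 11, at 0.94 M counts, was highest for Acadl (213) and Hadh (227) and lowest for Hadha (18). The p150-negative cerebella of animals 9 and 16 were highest for Acox2 (7.73) and Fabp1 (45.9). Among p150-positive cerebella animal 13 was highest for Acadm (118) and Etfa (173), animal 15 for Decr1 (98.3), animal 10 for Ehhadh (15.3) and animal 4 for Fabp1 (7.68).

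The genotype difference of Acadm and Hadhb differed between liver and cerebellum, with interactions of 0.90 and 0.89 on the log2 scale (edgeR's quasi-likelihood test, adjusted p = 0.0407 and 0.0411). In the animals with both tissues 0 members were called, with a replicate block (adjusted p = 0.21 and 0.23) or without it. Limma voom, library totals and no filter each called 0 members. RLE size factors, DESeq2 and a minimum count of 30 kept both calls. Among the libraries not used for the comparisons, Pdk4 had 246 CPM in the library labelled liver of p150-negative animal 2, and Fabp1 had 4533 CPM in the library labelled kidney of p150-positive animal 12, where the kidneys used had 0 to 45.7 CPM.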

How the results depend on the processing

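No result among those reported for the members turned its direction while called. In liver, members called higher numbered 1 with all libraries as labelled, and this was Pdk4. They numbered 1 with library totals in place of TMM (chosen after seeing the data), 3 with no filter, Pdk4 added, and 1 to 4 when single livers were left out. In 8 of those 14 fits Pdk4 was among them, having passed the filter through p150-negative livers. Apart from it there were 1 to 3, Cpt1a included without p150-negative animal 11. Of all genes, 441 of 10041 were called higher with all libraries as labelled. The count was 601 of 9843 with library totals and 893 of 23749 with no filter. Leaving out single livers gave 552 to 838, 632 of 10029 without animal 11, beside 683 of 9843 in the main fit. Fabp1 was the 1 member called lower in liver with limma voom, no filter, identifier letters as a block and Xist as a covariate. All genes lower there numbered 477 of 9843, 569 of 23749, 591 of 9843 and 422 of 9843, in that order. Fabp1 was also called without libraries under 1 M counts, beside 494 of 10066 genes lower. In liver that fit is the one without animal 16, and leaving out any other liver called 0 members lower. In kidney 0 members were called in every alternative run. In cerebellum Hadhb was the 1 member called lower with DESeq2, with all libraries as labelled and without animal 16. All genes lower there numbered 115 of 13146, 31 of 12971 and 42 of 12954, in that order. Leaving out any other single library called 0 members. Between liver and kidney, 2 members were called with the animal as a replicate block and 2 with DESeq2. Without the block, in the animals with both tissues (chosen after seeing the data), 1 was called. The calls over all genes in these fits are given above. Leaving out single animals called 0 to 1, the 1 without animal 5, beside 121 genes higher and 89 lower of 12910. Between liver and cerebellum, 0 were called with the replicate block, 0 without it in the animals with both tissues, 0 with limma voom, 0 with no filter, 0 with library totals, 1 without libraries under 1 M counts, 2 with all libraries as labelled (Hadhb and Pdk4), 3 with DESeq2 (Acadm, Hadhb and Pdk4) and 0 to 3 with single animals left out. The cause of these shifts was not tested. The block moved no call between kidney and cerebellum. Of the 21 other pathway genes called in liver, 16 were called with all libraries as labelled, 13 under every alternative that kept the livers together and 17 with each liver left out in turn. For the difference between liver and kidney, the median log2 value of all genes was -0.07 with library totals and 0.13 with limma voom, against 0.045 with TMM. The 5 p150-negative kidneys include 1 of 0.27 M counts. Without libraries under 1 M counts 0 members were called in kidney, beside 119 genes higher and 92 lower of 12283. The part of depth was not tested.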
